A study of Mus musculus and Sus scrofa with 18 samples.

Results

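Astrocytes were followed in the striatum of Huntington's disease (HD) mice through 10 genes, 4 that mark the reactive state (Gfap, Vim, Serpina3n and Lcn2) and 6 that mark astrocyte identity (Aqp4, S100b, Slc1a2, Slc1a3, Aldh1l1 and Gja1). The genes were listed by symbol and each was matched to 1 Ensembl identifier, so that they made up 10 of the 55357 genes counted. The rule was a list of names and used no measured value, though earlier results of these data were known when it was drawn up. All 10 passed the expression filter and were tested among 19463 genes. Tissue came from 3 wild-type (WT) mice given the AAV9-Ctrl gRNA vector without CasRx, 3 HD 140Q-KI mice given the AAV9-CasRx vector together with that control vector (untreated), and 3 HD 140Q-KI mice given AAV9-CasRx with a pair of vectors that carry HTT gRNA1+2 and HTT gRNA3+4 (treated). The knock-in mice were heterozygous on a C57BL/6J background, and in them the first exon of the mouse gene was replaced by its human counterpart with a lengthened CAG tract. Vectors were injected into the striatum at 6 months of age and tissue was taken 6 weeks later. CasRx, an RNA-cutting Cas13d enzyme, was driven by the ubiquitous CAG promoter, and it was present in both HD groups and absent from the WT mice, so that effects of the allele and of CasRx cannot be told apart when HD mice are set against WT. The study used GFAP protein as its astrocyte marker for gliosis. In mice injected at 6 months it reported less GFAP protein and fewer GFAP-positive cells in treated than in untreated mice. It also reported lower mutant HTT mRNA in these treated mice by RT-qPCR. The question here was how the transcripts of astrocyte identity and reactivity stood in the same model.

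Astrocytes clear glutamate from synapses, buffer potassium and water, couple to each other through gap junctions and feed neurons. After injury, infection or neurodegeneration they become reactive, build intermediate filaments, release acute-phase proteins and respond to cytokines and interferons, with STAT3, NF-kB and interferon regulatory factors among the factors known to drive these genes. In HD, striatal astrocytes are known to carry mutant huntingtin, and a loss of ion and glutamate handling has been described in them.

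The stretches of promoter just before the RefSeq start sites of Gfap and Serpina3n (120 bases each, GRCm38.p6) are shown because these were the reactive genes that stood highest above WT in both HD groups, by the fold changes given later, and because only the second holds a match to an inflammatory factor's motif. Gfap lies at chr11:102897201-102897320 on the minus strand and Serpina3n at chr12:104406588-104406707 on the plus strand. Capitals mark a match to the NF-kB motif, searched as GGGA, any 4 bases and CC.
Gfap: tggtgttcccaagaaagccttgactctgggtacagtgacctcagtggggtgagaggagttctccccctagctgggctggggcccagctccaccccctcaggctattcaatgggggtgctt
Serpina3n: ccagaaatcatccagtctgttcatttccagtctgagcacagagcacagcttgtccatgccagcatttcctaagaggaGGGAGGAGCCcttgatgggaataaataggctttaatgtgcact
RefSeq gave a promoter for 9 of the 10 genes (Aqp4 had no entry in the table used), and both strands of the 250 bases before each start were searched. The NF-kB motif was found in Serpina3n and Vim, beside 17.6% of all 32851 promoters. The STAT motif TTCNNNGAA was found in Slc1a3 alone of the 9 (7.02% of all promoters), the AP-1 motif TGANTCA in Gja1 alone (6.75%), and TATAAA in Vim and Slc1a3 (12.4%). The IRF motif, searched as GAAA, any 2 bases and GAAA, was in none of the 9 (2.98% of all promoters). In Vim the NF-kB match reads the same on both strands, and no 2 matches of different motifs overlapped. A match is only a run of letters in this window, and factor binding was not measured.

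Total counts were 27184356 to 31112342 in WT, 28628414 to 29311041 in untreated and 29943675 to 32102121 in treated mice. Levels are CPM, counts relative to library size after scaling by the trimmed mean of M-values (TMM), and differences are log2 fold changes from edgeR's quasi-likelihood test on all 9 mice, called where the Benjamini-Hochberg adjusted p over all tested genes was under 0.05. Htt, the targeted gene, was measured at 189, 191 and 182 CPM in WT, 145, 140 and 150 CPM in untreated and 140, 130 and 136 CPM in treated mice. Htt was lower in untreated than in WT mice (log2 fold change -0.37 ± 0.06 SE, edgeR, Benjamini-Hochberg adjusted p = 0.00656), and the difference of treated from untreated mice was -0.1 ± 0.06 (adjusted p = 0.942). These counts come from 3′ ends, where both alleles are mouse sequence and are counted together. The striatal projection neuron markers used to check the tissue summed to 7840 to 10200 CPM in WT, 2580 to 3050 CPM in untreated and 3980 to 4020 CPM in treated mice. 3 features separated mice irrespective of the astrocyte genes. Y-linked genes had counts in the 3 WT mice and untreated replicate 1 and none in the other 5, so that sex as read from these genes and group cannot be told apart between treated and WT mice. Choroid plexus markers were high in WT replicates 2 and 3 and treated replicate 3, and interferon-response genes were highest in untreated replicate 3. Values without such mice, or with these measures as covariates, are given where they bear on a result. Within groups the Y-linked share varied only among the WT mice and between untreated replicate 1 and the other untreated mice. The fit with this covariate rests on those differences. Its values for treated against WT mice are therefore extrapolated and cannot separate sex from group.

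Gfap encodes the main intermediate filament of reactive astrocytes. Its level was 143, 180 and 86.2 CPM in the WT mice, 231, 264 and 575 CPM in the untreated mice and 238, 477 and 369 CPM in the treated mice. Each of the 6 HD mice lay above each WT mouse, and untreated replicate 3 stood far above the other 2 untreated mice. The mean was 137 ± 47.3 CPM (SD, n = 3) in WT, 357 ± 189 CPM in untreated and 361 ± 119 CPM in treated mice, a ratio of means of 2.61 for untreated against WT and 2.64 for treated against WT. The log2 fold change of untreated against WT was 1.39 ± 0.4 (SE), which missed the threshold (edgeR, Benjamini-Hochberg adjusted p = 0.0546; unadjusted P = 0.00625). That of treated against WT was 1.4 ± 0.4 (edgeR, Benjamini-Hochberg adjusted p = 0.0838; unadjusted P = 0.00583). The Gfap call turned on single choices. DESeq2 put it past the threshold in both comparisons (adjusted p = 0.0285 and 0.0393), whereas with the share of Y-linked counts as a covariate the differences were 0.82 in untreated and 0.56 in treated mice (edgeR, Benjamini-Hochberg adjusted p = 0.315 and 0.76). Without untreated replicate 3 the difference of untreated from WT was 0.86 (edgeR, Benjamini-Hochberg adjusted p = 0.149) while that of treated from WT passed (adjusted p = 0.026).

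Serpina3n, a secreted serine protease inhibitor and one of the strongest known markers of reactive astrocytes, was the reactive gene that rose past the threshold. It was measured at 8.95, 10.3 and 4.62 CPM in WT, 24.3, 34.2 and 135 CPM in untreated and 26.5, 57.8 and 60.2 CPM in treated mice. The groups of HD mice did not overlap with WT, and untreated replicate 1 was the lowest and untreated replicate 3 the highest of the HD mice. Serpina3n rose in untreated mice by a log2 fold change of 3.02 ± 0.66 (SE; 95% interval 1.55 to 4.49; edgeR, Benjamini-Hochberg adjusted p = 0.0227), a ratio of means of 8.09. The difference of treated from WT mice was 2.6 ± 0.65 (interval 1.14 to 4.06), a ratio of 6.05, and missed the threshold (edgeR, Benjamini-Hochberg adjusted p = 0.059). Untreated replicate 3 set much of the size: without it the rise in untreated mice was 1.88 (edgeR, Benjamini-Hochberg adjusted p = 0.0332), and the difference of treated from WT mice, still 2.6, passed (adjusted p = 0.00631). The call in untreated mice was lost without WT replicate 2 (3.25, edgeR, Benjamini-Hochberg adjusted p = 0.0675), without WT replicate 3 (2.74, 0.063), with the share of Y-linked counts as a covariate (1.81, 0.155) and with the choroid plexus markers as a covariate (2.75, 0.185). It was also lost when the compared groups alone were fitted, where no member was called. With the Y-linked share as a covariate the difference of treated from WT mice was 0.98 (edgeR, Benjamini-Hochberg adjusted p = 0.706).

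Vim encodes vimentin, a second filament protein of reactive astrocytes that endothelial cells and other non-neuronal cells also make. Its level was 31.3, 38.8 and 34 CPM in WT, 40.6, 45.5 and 165 CPM in untreated and 47, 74.1 and 73.8 CPM in treated mice. All HD mice lay above all WT mice, but untreated replicates 1 and 2 were only just above the highest WT mouse and untreated replicate 3 was the highest of the 9. The log2 fold change was 1.27 ± 0.47 (SE) for untreated against WT (edgeR, Benjamini-Hochberg adjusted p = 0.115) and 0.9 ± 0.47 for treated against WT (adjusted p = 0.306). Without untreated replicate 3 it was 0.31 for untreated against WT (edgeR, Benjamini-Hochberg adjusted p = 0.359), and for treated against WT 0.91, which then passed (adjusted p = 0.0184). With the Y-linked share as a covariate the treated difference turned to -0.29 (edgeR, Benjamini-Hochberg adjusted p = 0.905).

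Lcn2 encodes lipocalin-2, an iron-siderophore binding protein secreted by strongly inflamed astrocytes and by neutrophils, and it did not follow the other 3 reactive genes. It was counted 52, 474 and 17 times in WT, 24, 21 and 29 times in untreated and 13, 27 and 21 times in treated mice, or 1.96, 17.4 and 0.565 CPM, 0.842, 0.705 and 0.985 CPM and 0.398, 0.89 and 0.678 CPM. WT replicate 2 was thus by far the highest of the 9 mice, WT replicate 1 was next, and WT replicate 3 lay within the range of the HD mice. The log2 fold change was -2.97 ± 1.01 (SE) for untreated against WT (edgeR, Benjamini-Hochberg adjusted p = 0.0901) and -3.34 ± 1.03 for treated against WT (adjusted p = 0.106). Without WT replicate 2 these were -0.57 and -0.93 (edgeR, Benjamini-Hochberg adjusted p = 0.573 and 0.438), and without WT replicate 3 they were -3.52 and -3.88 and both passed (adjusted p = 0.0336 and 0.0383). WT replicate 2 was also the highest of the 9 mice in Hspb1, a small heat shock protein of the reactive astrocyte lists (27.8 CPM, against 4.9 to 13.6 CPM elsewhere), in Fkbp5, a glucocorticoid-induced chaperone partner (86.6 CPM, against 25.6 to 47.7 CPM), and in the summed choroid plexus markers (3840 CPM, against 38.4 to 1320 CPM). The part of these in its Lcn2 count was not tested. None of the 10 neutrophil markers passed the expression filter: 3 had no count in any mouse, and the highest count of any of them was 8.

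**Figure D1:**
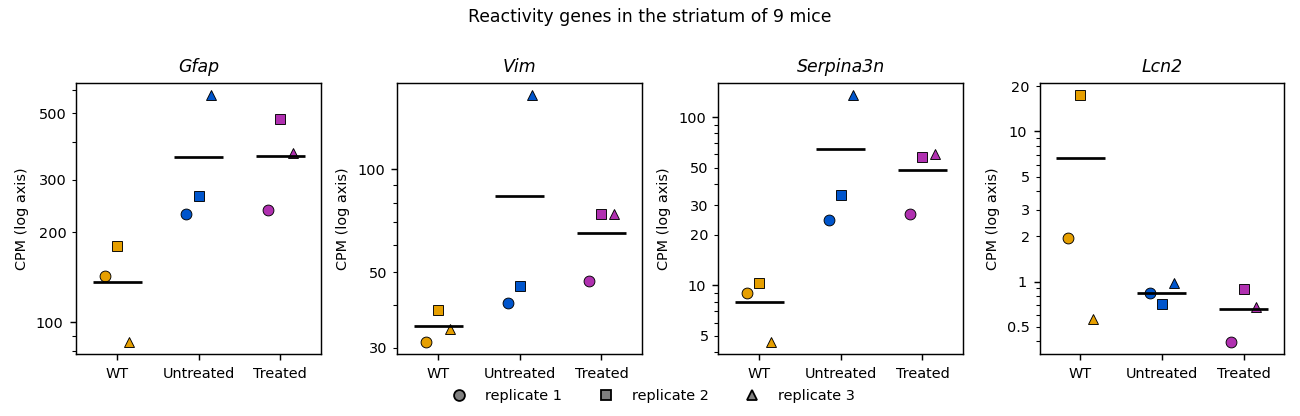
Levels of Gfap, Vim, Serpina3n and Lcn2 in CPM on log axes in each of 9 mice (3 WT, 3 untreated, 3 treated; symbols give the replicate, bars the group mean). Gfap, Vim and Serpina3n lie above all WT mice in all 6 HD mice with untreated replicate 3 the highest, whereas Lcn2 is highest in WT replicate 2 at 17.4 CPM.

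The identity genes moved little. Slc1a2 encodes GLT-1, the main glutamate transporter of astrocytes, and was at 2670, 2170 and 2260 CPM in WT, 2460, 2280 and 2260 CPM in untreated and 2280, 2360 and 2160 CPM in treated mice. The 3 groups lay over each other. The log2 fold change was -0.02 for untreated against WT (95% interval -0.24 to 0.21) and -0.06 for treated against WT (-0.29 to 0.16), with Benjamini-Hochberg adjusted p of 0.928 and 0.765 (edgeR). Slc1a3, the second glutamate transporter (GLAST), was at 436, 392 and 416 CPM in WT, 394, 402 and 485 CPM in untreated and 405, 429 and 412 CPM in treated mice. Here too the groups overlapped, and untreated replicate 3 was the highest. The differences from WT were 0.04 (interval -0.16 to 0.25) in untreated and 0 (-0.2 to 0.21) in treated mice.

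Aldh1l1, a folate enzyme found in nearly all astrocytes, was at 59.1, 64.2 and 46 CPM in WT, 60.5, 49.6 and 58.3 CPM in untreated and 48.6, 57.6 and 58.1 CPM in treated mice. The WT mice spanned the whole range of the others. Its log2 fold change was -0.01 (interval -0.31 to 0.29) in untreated and -0.04 (-0.34 to 0.26) in treated mice against WT. Gja1 encodes connexin 43, the main gap junction protein of astrocytes, and was at 147, 114 and 148 CPM in WT, 133, 137 and 123 CPM in untreated and 131, 153 and 129 CPM in treated mice. The differences were -0.06 (interval -0.3 to 0.19) and 0.02 (-0.23 to 0.27), again with overlap in both. The 95% intervals of these 4 genes against WT all lay within 0.34 on the log2 scale of no difference.

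Aqp4 and S100b lay further from WT than the other identity genes in both HD groups, and only S100b in treated mice passed the threshold. Aqp4, the water channel of astrocyte endfeet, was at 94, 65 and 99.3 CPM in WT, 89.2, 120 and 146 CPM in untreated and 114, 146 and 135 CPM in treated mice. The treated mice all lay above the WT mice, and untreated replicate 1 lay within the WT range. The log2 fold change was 0.46 ± 0.2 (SE) for untreated against WT (edgeR, Benjamini-Hochberg adjusted p = 0.164) and 0.61 ± 0.2 for treated against WT (adjusted p = 0.12). S100b, a calcium-binding protein of astrocytes that some oligodendrocytes also make, was at 95.5, 90.4 and 106 CPM in WT, 118, 115 and 99.4 CPM in untreated and 135, 153 and 122 CPM in treated mice. Every treated mouse lay above every untreated and WT mouse, while untreated replicate 3 lay within the WT range. S100b rose in treated against WT mice by 0.49 ± 0.1 on the log2 scale (interval 0.26 to 0.72; edgeR, Benjamini-Hochberg adjusted p = 0.0349), a ratio of means of 1.4. In untreated mice its difference from WT was 0.18 ± 0.1 (edgeR, Benjamini-Hochberg adjusted p = 0.266). The S100b call stood close to the threshold: it was lost under 11 of 18 alternatives, with log2 fold changes of 0.41 to 0.64 and Benjamini-Hochberg adjusted p of 0.000788 to 0.257 over all 18. With the Y-linked share as a covariate the difference was 0.64 and did not pass (edgeR, Benjamini-Hochberg adjusted p = 0.257). It was also lost without WT replicate 1 (adjusted p = 0.0695), WT replicate 2 (0.118), untreated replicate 2 (0.0672) and treated replicates 1, 2 or 3 (0.117, 0.141 and 0.0592; edgeR, Benjamini-Hochberg), at log2 fold changes of at least 0.41. The oligodendrocyte markers, of cells that can also make S100b, summed to 9850 to 10800 CPM in WT, 7790 to 8410 CPM in untreated and 8170 to 12200 CPM in treated mice. Treated replicate 2 was high in S100b and in these markers. In treated against WT mice 1 of 10 of these markers rose and none fell (10%, beside 3.69% of all tested genes). The part of these markers in the S100b difference was not tested. In bulk tissue, a change in the number of astrocytes and a change in RNA per astrocyte cannot be told apart, and this holds for every level given here.

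**Figure D2:**
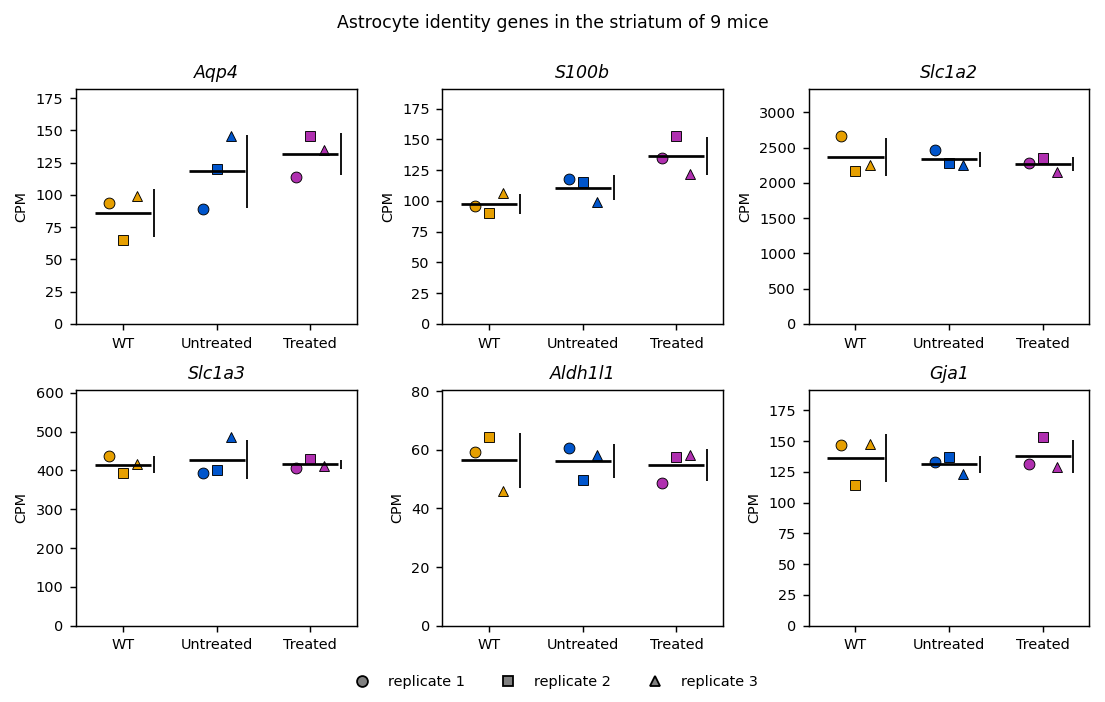
Levels of the 6 identity genes in CPM in each of 9 mice, with axes from 0; horizontal bars are group means and vertical bars the SD over 3 mice. Slc1a2, Slc1a3, Aldh1l1 and Gja1 overlap in all groups, whereas S100b is at 122 to 153 CPM in the treated mice and 90.4 to 106 CPM in WT.

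Counted over the 10 genes, 1 passed the threshold in untreated against WT (Serpina3n, higher), beside 10.7% of all tested genes (4.58% higher and 6.1% lower). In treated against WT 1 of 10 passed (S100b, higher), beside 3.69% of all genes (0.904% higher and 2.78% lower). Groups did not overlap for 3 of 10 genes in untreated against WT (30.1% of all tested genes; 15% higher and 15.1% lower) and for 5 of 10 in treated against WT (28.6%; 13.4% and 15.1%), each of them higher in the HD mice. In untreated mice the shares of members called and without overlap were thus close to those of all genes. For differentially expressed genes the study's results give a rule of at least 2-fold at an unadjusted P under 0.05, while its methods name P under 0.01. By the rule at 0.05, 4 of 10 members differed in untreated against WT (Gfap, Vim and Serpina3n higher, Lcn2 lower), beside 8.16% of all genes (5.57% higher and 2.58% lower). By the same rule 3 of 10 differed in treated against WT (Gfap and Serpina3n higher, Lcn2 lower), beside 5.22% of all genes (3.84% higher and 1.38% lower), all of them reactive genes. The exact permutation test over 3 against 3 mice (two-sided) gave p = 0.1, the smallest it can give, for each gene without overlap. The median log2 fold change of the 4 reactive genes was 1.33 in untreated and 1.15 in treated mice against WT, that of the 6 identity genes 0.02 and 0.01, and that of all tested genes 0.02 and 0.

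Treated and untreated mice were compared directly to see whether HTT gRNAs moved these genes. None of the 10 passed the threshold, as none of the 19463 genes did (0% called by edgeR, 1071 genes or 5.5% at an unadjusted P under 0.05, 48 genes by DESeq2, none of them a member). By the 2-fold rule none of the 10 differed either, beside 0.771% of all genes (0.36% higher and 0.411% lower). Gfap differed by 0.02 on the log2 scale (95% interval -0.85 to 0.89), Vim by -0.37 (-1.41 to 0.68), Serpina3n by -0.42 (-1.76 to 0.92) and Lcn2 by -0.37 (-2.72 to 1.99). These intervals span a lowering and a raising of the reactive genes alike, so that a difference of this size was not detectable with 3 mice a group. Untreated replicate 3 set the sign for 2 of them: without it Vim differed by 0.59 and Serpina3n by 0.72, both higher in treated mice, and Gfap by 0.54, none past the threshold (edgeR, lowest Benjamini-Hochberg adjusted p of the 3 genes over leaving out each mouse 0.789). For the identity genes the intervals were narrower, from -0.27 to 0.18 for Slc1a2, -0.24 to 0.17 for Slc1a3, -0.33 to 0.26 for Aldh1l1, -0.18 to 0.32 for Gja1 and -0.29 to 0.6 for Aqp4. S100b was the 1 of 10 genes whose groups did not overlap (15.8% of all tested genes did not; 6.92% higher and 8.83% lower), with a difference of 0.3 (interval 0.07 to 0.53; unadjusted P = 0.0146; edgeR, Benjamini-Hochberg adjusted p = 0.886). The comparisons of untreated and of treated mice with WT share the same 3 WT mice, so the likeness of their values for Gfap and Serpina3n is not an independent repeat.

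**Figure D3:**
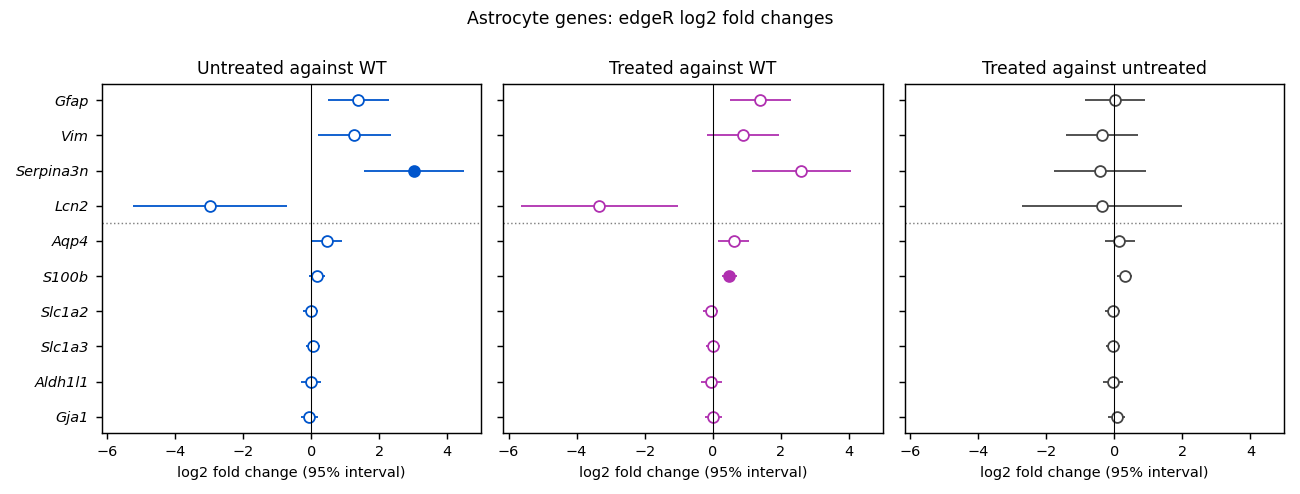
Log2 fold changes of the 10 genes from edgeR in untreated against WT, treated against WT and treated against untreated mice (3 mice a group); lines are 95% intervals and filled points passed an adjusted p under 0.05. Filled points are Serpina3n in the first panel at 3.02 and S100b in the second at 0.49; the third panel has none.

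Beyond the members, the signals that induce reactive astrocytes were examined as a list of 19 cytokines, growth factors and receptors, of which 17 were tested. 2 of 17 rose in untreated mice (11.8%, beside 10.7% of all tested genes) and 1 in treated mice against WT (5.88%, beside 3.69%), and none fell. C1qa, a complement component that microglia make and that helps induce the reactive state, was at 38.5, 47.8 and 33.7 CPM in WT, 65.4, 83.4 and 299 CPM in untreated and 75.6, 119 and 152 CPM in treated mice. All HD mice exceeded all WT mice, and C1qa rose in untreated mice by 1.9 ± 0.52 (SE, log2; edgeR, Benjamini-Hochberg adjusted p = 0.0489). Ifngr2, a chain of the interferon-gamma receptor, rose in both, by 0.94 ± 0.12 in untreated (edgeR, Benjamini-Hochberg adjusted p = 0.00193) and 0.63 ± 0.12 in treated mice (adjusted p = 0.0218). Of 15 tested genes of the JAK/STAT3 response, the pathway downstream of IL-6 family cytokines, 1 rose in untreated mice and none in treated mice: Lifr, the receptor chain for leukaemia inhibitory factor, at 47.5 CPM in untreated against 33.1 CPM in WT (log2 fold change 0.52 ± 0.09, edgeR, Benjamini-Hochberg adjusted p = 0.00751). Its fellow members Junb, an AP-1 factor, and Jak2, a receptor kinase, had differences of -0.53 and -0.28 in untreated mice and did not pass. The share of this list called in untreated mice was 6.67%, beside 10.7% of all tested genes.

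Among the targets of these signals, the pan-reactive list holds genes that astrocytes induce after many injuries, the A1 list those typical of inflammation and the A2 list those typical of ischemia. Of 13 pan-reactive genes (all 4 reactive members included), 2 rose in untreated mice and 1 in treated mice. These were 15.4% and 7.69%, beside 10.7% and 3.69% of all tested genes. The 1 other than Serpina3n was Cxcl10, an interferon-induced chemokine, at 0.0756, 0.147 and 0 CPM in WT, 3.23, 4.3 and 32.3 CPM in untreated and 3.95, 3.89 and 26.4 CPM in treated mice (edgeR, Benjamini-Hochberg adjusted p = 0.0198 and 0.0383). With a handful of counts in all WT mice together, no fold is given for it. The other 11 did not pass, among them Aspg, an asparaginase, with a difference of 1.16 in untreated mice and Hspb1 with -1.24. The median of the list was 1.16 in untreated and 0.87 in treated mice against WT.

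Of 12 tested A1 genes, 6 rose and 2 fell in untreated mice against WT, and 1 rose and 1 fell in treated mice. These were 66.7% and 16.7%, beside 10.7% and 3.69% of all tested genes. H2-D1, a class I antigen-presenting molecule, rose from 36.2, 44.2 and 34.9 CPM in WT to 130, 214 and 815 CPM in untreated mice (3.33 ± 0.65, edgeR, Benjamini-Hochberg adjusted p = 0.0156) and to 168, 259 and 449 CPM in treated mice (2.93 ± 0.64, adjusted p = 0.0404). C3, the central complement component and a common marker of this state, was at 1.47, 1.98 and 1.23 CPM in WT, 5.96, 14.5 and 130 CPM in untreated and 11.2, 23.7 and 37.6 CPM in treated mice. C3 passed in untreated mice (edgeR, Benjamini-Hochberg adjusted p = 0.0251) and not in treated mice (0.0797), and the difference between the 2 HD groups was -1.05 ± 0.91. Psmb8, an immunoproteasome subunit, Iigp1, an interferon-induced GTPase, and Ggta1, a galactosyltransferase, rose in untreated mice too, whereas Fbln5, an elastic fibre protein, and Fkbp5 fell, by 1.09 and 0.96 on the log2 scale. Fkbp5 also fell in treated mice, by 1.08 (edgeR, Benjamini-Hochberg adjusted p = 0.0385), with all 6 HD mice at 25.6 to 36.1 CPM below the lowest WT mouse at 45.4 CPM. H2-D1, Psmb8 and Iigp1 are classical interferon targets that many cell types make, microglia and endothelium included. Of 11 tested A2 genes 1 rose in untreated mice and none in treated mice: Ptgs2, the inducible cyclooxygenase that neurons also make, at 9.02 against 4.34 CPM (1.06 ± 0.22, edgeR, Benjamini-Hochberg adjusted p = 0.0196). The share of A2 genes called in untreated mice was 9.09%, beside 10.7% of all tested genes.

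None of the 6 genes of the intermediate filament list passed in either HD group. Besides Gfap and Vim these include Nes, the filament nestin of immature and reactive astrocytes (0.24 in treated mice), Lmna, the nuclear lamin A/C (0.54 in untreated mice), Synm, the filament synemin (0.2 in untreated mice), and the cross-linker Plec (-0.12 in untreated and -0.25 in treated mice). Counted over all 55 tested genes of the reactive lists, 10 rose and 2 fell in untreated mice (21.8%, beside 10.7% of all tested genes), 2 rose and 1 fell in treated mice (5.45%, beside 3.69%), and none passed between the HD groups. Their median log2 fold change was 0.59 in untreated and 0.57 in treated mice against WT and -0.13 between treated and untreated mice, beside 0.02, 0 and -0.01 over all tested genes. Single mice and covariates moved these counts: of the 12 calls in untreated mice 2 were left in number without WT replicate 2, 5 without WT replicate 3 and 7 without untreated replicate 3. With the Y-linked share as a covariate 1 was left, and with the choroid plexus markers as a covariate 0. In treated mice the count was 16 without untreated replicate 3, 7 without untreated replicate 1, and 1 or 0 without WT replicates 1 or 2, untreated replicate 2 or any treated mouse.

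**Figure D4:**
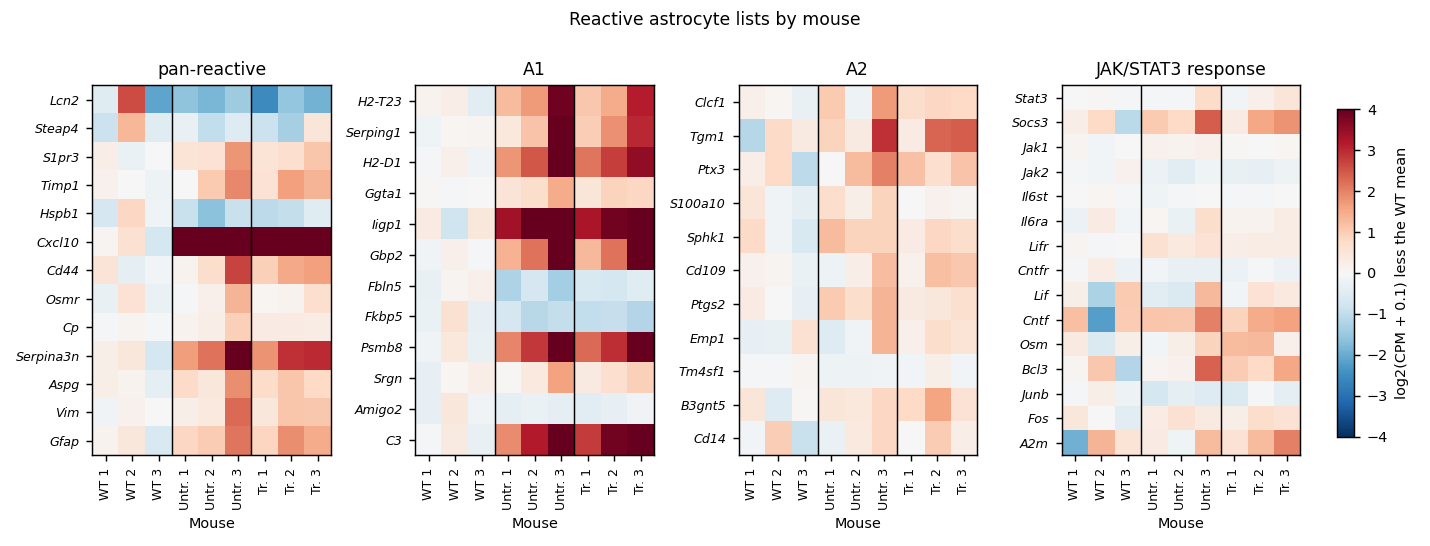
Tested genes of the pan-reactive, A1, A2 and JAK/STAT3 response lists (rows) in 9 mice (columns), coloured by log2(CPM + 0.1) less the mean of the 3 WT mice, with colours capped at 4 in either direction. Untreated replicate 3 is the reddest column in most rows, Cxcl10 and most A1 genes are red in all 6 HD mice, and Lcn2 is red in WT replicate 2 alone.

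Serpina3n belongs to a cluster of closely related inhibitor genes, so reads could in principle be shared within it. Of the 10 other cluster genes, 5 had no count in any mouse and only Serpina3f and Serpina3g were tested. Serpina3g was at 0.302, 1.06 and 0.0997 CPM in WT, 0.807, 1.04 and 12.6 CPM in untreated and 1.41, 1.35 and 2.81 CPM in treated mice, with overlap between untreated and WT mice. Serpina3f was counted 4, 8 and 0 times in WT, 0, 15 and 262 times in untreated and 7, 19 and 94 times in treated mice. Neither passed (edgeR, Benjamini-Hochberg adjusted p = 0.0917 and 0.142 in untreated, 0.362 and 0.361 in treated mice), and in every mouse their counts were far below the 139 to 3970 counts of Serpina3n. The other members share exon bases only with genes of low count: Slc1a2 with Gm13872 (at most 4 counts) and Aldh1l1 with Gm45901 and Gm15756 (at most 9 and 6 counts).

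The wider identity lists were read for whether the flat levels of Slc1a2, Slc1a3, Aldh1l1 and Gja1 held for other astrocyte functions. Over 96 genes, 6 rose and 9 fell in untreated mice (15.6% called, beside 10.7% of all tested genes), and 1 rose and 3 fell in treated mice (4.17%, beside 3.69%). The median was -0.09 in untreated and -0.07 in treated mice against WT and 0.02 between the HD groups, and the summed level was 18400 to 19800 CPM in WT, 17300 to 18300 CPM in untreated and 17400 to 18900 CPM in treated mice. The count in untreated mice was 8 without untreated replicate 2 and between 8 and 18 over leaving out each mouse. It was 4 with the Y-linked share as a covariate and 1 with the choroid plexus markers as a covariate. In treated mice it was 0 without WT replicate 2, untreated replicate 2 or any treated mouse. The shares of all tested genes called, 10.7% in untreated and 3.69% in treated mice, also stand beside the counts by function below.

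By function, none of the 9 genes of glutamate and GABA uptake and metabolism passed. Glul, glutamine synthetase, was at 1610, 1620 and 1500 CPM in WT, 1610, 1360 and 1390 CPM in untreated and 1280, 1450 and 1260 CPM in treated mice. The treated mice lay below all WT mice, but the difference of -0.24 ± 0.1 did not pass (edgeR, Benjamini-Hochberg adjusted p = 0.19). Slc7a11, the cystine-glutamate exchanger, stood at 17.2 to 25.2 CPM in WT and 27.7 to 35.9 CPM in treated mice (0.61 ± 0.18, edgeR, Benjamini-Hochberg adjusted p = 0.0931). Of 12 genes of potassium, water and ion handling, 1 rose and 1 fell in untreated mice and none passed in treated mice. Slc4a4, the sodium bicarbonate cotransporter, fell from 218, 193 and 257 CPM in WT to 132, 160 and 133 CPM in untreated mice (-0.65 ± 0.11, edgeR, Benjamini-Hochberg adjusted p = 0.00939), and was at 172, 167 and 158 CPM in treated mice, which overlapped with the untreated mice (-0.43 against WT, adjusted p = 0.0702). Kcnj16, an inward rectifier potassium channel subunit, rose in untreated mice (21 against 11.4 CPM, 0.88 ± 0.24, edgeR, Benjamini-Hochberg adjusted p = 0.0436). None of 12 gap junction and adhesion genes passed; Gjb6, connexin 30, had a difference of -0.54 ± 0.19 in treated mice.

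Of 17 metabolic and calcium-binding markers, 3 fell in untreated mice: Ttyh1, a chloride channel family member, Ndrg2, a differentiation marker of astrocytes, and Mt1, a metallothionein that binds zinc. Ttyh1 was at 499, 555 and 501 CPM in WT, 422, 383 and 368 CPM in untreated and 412, 421 and 391 CPM in treated mice, so that WT stood apart from both HD groups. It fell in both, by 0.41 and 0.35 on the log2 scale (edgeR, Benjamini-Hochberg adjusted p = 0.0156 and 0.0476). Of 12 secreted and lipoprotein genes, Mfge8, an opsonin for cell debris, fell in both HD groups (-0.48 ± 0.09 and -0.4 ± 0.09, edgeR, Benjamini-Hochberg adjusted p = 0.0153 and 0.0487). In untreated mice Agt, angiotensinogen, fell from 14.7, 18.2 and 18.6 CPM to 8.66, 11 and 5.98 CPM (-1 ± 0.21, edgeR, Benjamini-Hochberg adjusted p = 0.0185), and it was at 13.3, 16 and 14.4 CPM in treated mice. The treated mice lay above the untreated mice for Agt without overlap, at a difference of 0.77 ± 0.21 (unadjusted P = 0.00424; edgeR, Benjamini-Hochberg adjusted p = 0.821). Chrdl1, a synapse-maturing factor that astrocytes secrete, rose in untreated mice (1.03 ± 0.26, edgeR, Benjamini-Hochberg adjusted p = 0.0351).

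Of 14 receptors, Grm3, the metabotropic glutamate receptor of adult astrocytes, fell in both HD groups, from 61.4, 56.4 and 64.8 CPM in WT to 47.7, 42.5 and 35.7 CPM in untreated and 42.8, 46.1 and 44.1 CPM in treated mice (edgeR, Benjamini-Hochberg adjusted p = 0.0163 and 0.0487). Lgr6 rose in untreated mice, from 2.11 to 6.35 CPM (1.59 ± 0.24, edgeR, Benjamini-Hochberg adjusted p = 0.0046). Of 12 transcription factors, Nfix and Nfib, nuclear factors of glial differentiation that neurons share, and Hes1, a Notch target, rose in untreated mice (0.83, 0.84 and 1.11). None of them passed in treated mice. Gli3, a hedgehog pathway factor named after its values were seen, was the 1 that fell (-0.61). Of 8 genes enriched in striatal astrocytes, Crym, the mu-crystallin that marks them and that striatal neurons also make, fell in untreated mice from 68.6, 141 and 131 CPM to 38.8, 56.3 and 44.5 CPM (-1.29 ± 0.25, edgeR, Benjamini-Hochberg adjusted p = 0.0159). In treated mice it was at 59.6, 56.9 and 76.2 CPM, which overlapped with WT (-0.82 ± 0.25, adjusted p = 0.103). All 14 striatal projection neuron markers fell in untreated mice and 11 of 14 in treated mice, and the part of this in the falls of genes that neurons share was not tested.

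Markers of other cells were set beside the reactive genes. The 20 interferon-response genes summed to 107 to 111 CPM in WT, 265 to 1250 CPM in untreated and 236 to 890 CPM in treated mice. Past the threshold, 16 of 20 rose in untreated mice (80%, beside 10.7% of all tested genes) and 4 in treated mice (20%, beside 3.69%). All 20 had a positive difference from WT in both HD groups, with medians of 3.23 in untreated and 2.86 in treated mice. Between the HD groups none of the 20 passed. Relative to WT, their mean log2 level was 1.85, 2.43 and 4.19 for the untreated and 1.67, 1.97 and 3.69 for the treated replicates, so that untreated replicate 3, the mouse highest in Gfap, Vim and Serpina3n, was also the highest here. Within the treated group Serpina3n followed the order of the interferon genes, Vim was level in treated replicates 2 and 3, and Gfap was highest in treated replicate 2. The 12 microglial markers, none of them at 0, summed to 371 to 402 CPM in WT, 419 to 836 CPM in untreated and 537 to 637 CPM in treated mice, and none of 12 passed in untreated and 1 in treated mice (Siglech, 0.61 ± 0.14). All HD mice lay above all WT mice in this sum, as they did for Gfap and Serpina3n. Of 10 T cell markers, 4 rose and 1 (Cd4, which other brain cells can also make) fell in untreated mice, and Cd4 alone passed in treated mice, also lower. Among those that rose was Cd8a from at most 0.133 CPM in WT to 1.16, 2.75 and 19.1 CPM. Endothelial markers, of cells that also make Vim, summed to 213 to 254 CPM in WT, 269 to 325 CPM in untreated and 282 to 305 CPM in treated mice, with 3 and 2 of 10 rising. Ependymal markers, of ciliated cells that can contain Gfap and Vim, summed to 42.6 to 66.4 CPM in WT, 38.3 to 50.5 CPM in untreated and 34.7 to 50.8 CPM in treated mice and none of 10 passed. The part of interferon-response, microglial, T cell and endothelial transcripts in the levels of the reactive genes was not tested.

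**Figure D5:**
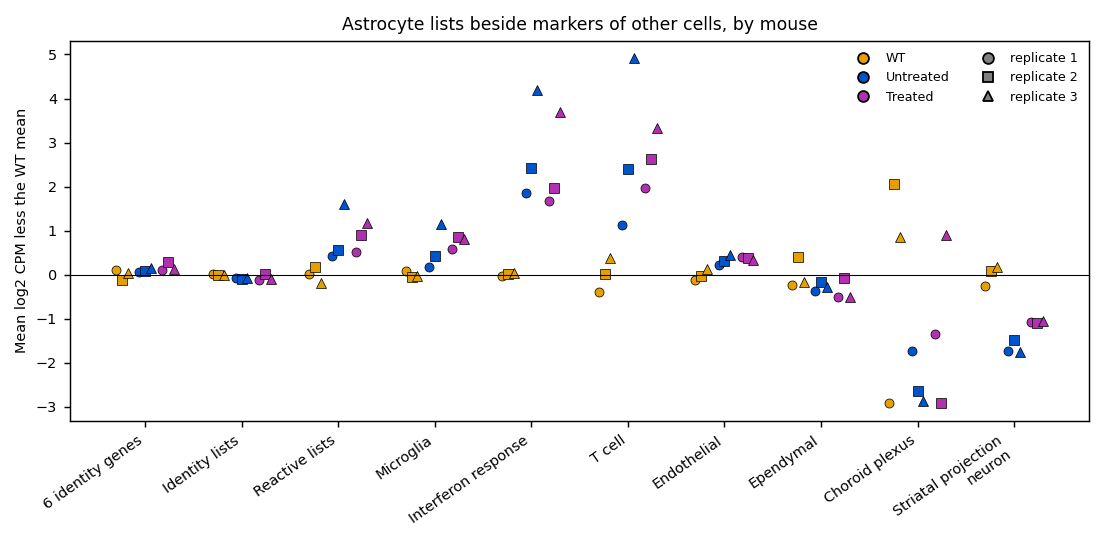
Mean log2 CPM of each list less its WT mean (vertical axis) for astrocyte lists and for markers of other cells (horizontal axis), 1 point per mouse, coloured by group and shaped by replicate. All identity lists pooled (96 genes) stay within 0.11 of WT in all mice, all reactive lists pooled (55 genes) reach 1.61 in untreated replicate 3, and the choroid plexus markers split the WT and treated groups.

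As a description over the 9 mice, which share groups, library preparation and the mouse with the strongest interferon response, the genes whose log2 CPM most resembled Gfap among 10583 genes with a mean of at least 10 CPM were Adamtsl1 (Pearson r = 0.988), Serpina3n (0.98), Mob3a (0.968), the microglial adaptor Tyrobp (0.962) and Tep1 (0.961). Serpina3n is thus the only one of the other 9 members among the 5. For Slc1a2 the 5 were Sparcl1, a synapse-organising protein secreted by astrocytes (0.947), Dctn4 (0.939), Mtch2 (0.909), Bcl2l2 (0.907) and Pdcd5 (0.892). Sparcl1 was at 1404 CPM in WT replicate 1, the mouse highest in Slc1a2, and at 1121.2 to 1341.7 CPM in the other 8.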

How the data were processed

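Striatal RNA of 9 mice was sequenced as 3′ mRNA libraries (oligo-dT primed, with a sample barcode; whether duplicate reads were removed or strand was used in counting was not given in the sources used here). The authors deposited raw gene counts. Their methods name STAR, whereas the submitters' processing notes list Trimmomatic 0.39, FastQC 0.11.9, HISAT2 2.2.1, featureCounts 2.0.1 and the pig build Sscrofa11.1; the mouse build was not given in the sources used here, so no gene coordinates are given from the counts. The pig counts were not analysed here.

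Ensembl identifiers were matched to symbols (94.1% of 55357). Counts were fitted in edgeR 4.0.16 (R 4.3.3) over all 9 mice, with filterByExpr, TMM scaling and quasi-likelihood tests (6 residual degrees of freedom). Calls needed a Benjamini-Hochberg adjusted p under 0.05 over 19463 genes. CPM are TMM-scaled; log2 CPM used a prior count of 2. Standard errors were the log2 fold change divided by the root of F. Alternatives were DESeq2 1.42.0, no TMM, no filter, at least 10 counts in every mouse, the compared groups alone, a replicate block, the Y-linked share as a covariate, the 2-fold rules at P under 0.05 and 0.01, and each mouse left out. A choroid plexus covariate and the joint removal of 2 mice were added after seeing the data. In 378 genes every library held a count of 1, a value that reached no test except in the alternative with no filter. Total counts were 27184356 to 32102121 per mouse; Lcn2 had 13 to 474 counts per mouse and each other member at least 139. The code was tested on simulated counts. Figures used matplotlib 3.10.9 and Python 3.11.15.

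The members, gene lists and tests were chosen with earlier results of these data known. Genes were named by rule: all members, the Serpina3 cluster, the 3 genes of each list with the smallest P in each comparison, and the 5 genes most like Gfap and Slc1a2. The labels number the mice within groups, and the methods do not say that numbers pair them.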

Additional observations from a re-analysis of the deposited data

How the results depend on the processing

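With 3 mice a group, 1 mouse often decided a call, and counts were low for Lcn2, for Serpina3f and, in WT, for Cxcl10. In treated against untreated mice no member and no gene of the astrocyte identity or reactive lists was called by any alternative; the lists of other cells were not run under the alternatives. The number of members called in untreated against WT mice (1) was 3 by DESeq2, 2 at 10 counts in every mouse, 0 in the compared groups alone and with the Y-linked share or the choroid plexus markers as covariate, 4 and 2 by the 2-fold rules at P under 0.05 and 0.01, and 0 to 2 leaving out each mouse. In treated against WT mice (1) it was 5 by DESeq2, 4 in the compared groups alone, 0 with no filter and with either covariate, 3 by either 2-fold rule, 3 without untreated replicate 3 and WT replicate 2, and 0 to 4 leaving out each mouse. For the reactive lists in untreated mice (12) it was 22 by DESeq2, 7 with no filter, 5 in the compared groups, 1 with the Y-linked share, 0 with the choroid plexus markers, 4 without both mice, 21 by the 2-fold rule at 0.05, and 2 to 15 leaving out each mouse; in treated mice (3) it was 11, 0, 13, 0, 0, 8 and 15 in the same order, 9 by the 2-fold rule at 0.01, and 0 to 16. For the identity lists in untreated mice (15) it was 27 by DESeq2, 5 in the compared groups, 4 and 1 with the covariates, 7 without both mice, 6 and 5 by the 2-fold rules, and 8 to 18; in treated mice (4) it was 18 by DESeq2, 1 without TMM, 0 with no filter, 1 at 10 counts, 0 with either covariate or 2-fold rule, 2 without both mice, and 0 to 6. The cause of these moves was not tested.

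Deviations of mice with the same number had correlations between -0.081 and 0.064 for untreated and WT and -0.062 and 0.085 for treated and WT. For treated and untreated mice they lay between -0.003 and 0.236, with 0.191 for number 1 and 0.236 for number 3. Of 6 mice, 2, 2 and 4 correlated best with their own number in these 3 comparisons. With 3 mice a group this check cannot decide whether the numbers pair mice. With the replicate block, the members called were 1 in untreated and 0 in treated mice against WT (S100b 0.48, Benjamini-Hochberg adjusted p = 0.053, edgeR), the reactive list genes 6 and the identity list genes 1 in treated mice.

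Directions turned in 26 cases besides those that left out a single mouse, all in differences not called with all 9 mice by edgeR as reported. That of Vim in treated against WT mice passed under 3 alternatives (in the compared groups alone, without untreated replicate 3, and without both mice). With the Y-linked share, Gfap between the HD groups was -0.26, Vim in treated against WT mice -0.29, Slc1a2 0.05 and 0.05, Slc1a3 -0.04 and -0.13, Aldh1l1 0.04 and 0.03 in untreated and treated mice against WT, and Gja1 in untreated mice 0. Without TMM, Slc1a2 in untreated mice was 0.03 and Aldh1l1 0.04 and 0.01 in untreated and treated mice. With the choroid plexus markers, Slc1a2 between the HD groups was 0.01, Slc1a3 -0.04, -0.04 and 0.01 over the 3 comparisons, Aldh1l1 in untreated mice 0.01 and Gja1 in treated mice -0.05. Without both mice, Vim and Serpina3n between the HD groups were 0.59 and 0.72, Slc1a3 -0.09, -0.03 and 0.06, Aldh1l1 0.08 and 0.07 against WT, and Gja1 in treated mice -0.09. Leaving out each mouse, values spanned, between the HD groups, -0.23 to 0.54 (Gfap), -0.68 to 0.59 (Vim), -0.8 to 0.72 (Serpina3n), -0.01 to 0.33 (Aqp4), -0.07 to 0 (Slc1a2), -0.09 to 0.06 (Slc1a3), -0.11 to 0.05 (Aldh1l1) and 0 to 0.12 (Gja1); in untreated against WT mice, -0.07 to 0.07 (Slc1a2), -0.06 to 0.09 (Slc1a3), -0.13 to 0.1 (Aldh1l1) and -0.17 to 0.01 (Gja1); and in treated against WT mice, -0.11 to 0.02, -0.03 to 0.03, -0.16 to 0.07 and -0.09 to 0.09 for the same 4 genes.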
